A study of Mus musculus with 6 samples.

Results

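Chylomicrons are the lipid particles that carry dietary fat out of the gut, and 9 genes of their assembly and export were followed in mouse intestine with and without SHP. The genes were chosen by name, for their roles, though with earlier results of these data known. The 9 genes are Mttp, P4hb, Tm6sf2, Pla2g12b, Creb3l3, Surf4, Sar1b, Sec23a and Sec23b. They are 9 of 23284 genes in the count files, and all 9 passed the filter on low counts. SHP-KO mice lack SHP (small heterodimer partner, gene Nr0b2), a nuclear receptor that binds no DNA itself and acts as a corepressor, and they were set against wild-type (WT) mice. Both groups were 8-week-old males that were refed for 6 h after a night without food, and each gave 3 libraries of RNA from jejunum and ileum together. The sources used here do not state the strain, how the allele was made, the share of each gut segment, or whether the libraries came from separate animals.

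Enterocytes rebuild triglyceride from absorbed fat inside the endoplasmic reticulum (ER). There the microsomal triglyceride transfer protein, a dimer of MTTP and the protein disulfide isomerase P4HB, loads lipid onto apolipoprotein B as it is made. The filled particle leaves the ER through the COPII coat, which the small GTPase SAR1B starts and in which SEC23 binds SEC24, the cargo adaptor. Loss of SAR1B in humans causes chylomicron retention disease, in which fat builds up in enterocytes.

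Total counts were 7956528 to 9289543 in SHP-KO libraries and 11265437 to 13511800 in WT libraries, so that even Sec23b, the least counted of the 9, had 602 counts or more in each. Nr0b2 had 1, 0 and 0 counts in SHP-KO replicates 1 to 3 and 31, 14 and 23 in WT, which matches the labels. Libraries of a genotype lay close together, with a common coefficient of variation (CV) of 0.030 (edgeR), and small differences pass a test at such a spread. Of 12106 tested genes, 70.6% passed at an adjusted p under 0.05, 35.2% higher and 35.4% lower in SHP-KO. Adjusted p-values are from edgeR's quasi-likelihood test with Benjamini-Hochberg adjustment over all tested genes, and they measure the spread between these libraries only, which may be technical.

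Against that background 7 of the 9 genes rose in SHP-KO, 1 (Sar1b) fell and 1 (Pla2g12b) did not pass. The median log2 fold change of the 9 was 0.58, beside -0.012 over all tested genes. The increases were largest for the transfer protein, its ER partner and the cargo receptor (Mttp, P4hb and Surf4) and small for Sec23a and Tm6sf2. In 7 of the 9 the libraries of the genotypes did not overlap, a separation that 72.0% of all tested genes showed. In a bulk sample, fewer cells of a type and less RNA per cell cannot be told apart. Segment markers moved in the same libraries. Of 9 tested upper small intestine markers 8 rose (summed 7173 to 7259 CPM in SHP-KO, 1182 to 1205 CPM in WT). Of 10 ileum markers 7 fell (3594 to 3654 CPM in SHP-KO, 18582 to 18968 CPM in WT). Fabp6 was the largest part of the WT ileum sum, with a mean of 10792 CPM there against 144.5 in SHP-KO. Some markers went the other way. The ileum markers Slc10a2, Pyy and Nts rose (log2 1.14, 0.49 and 0.30), and the upper marker Slc40a1 fell (log2 -3.45). The part of these segment marker changes in the 9 genes was not tested.

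**Figure D1:**
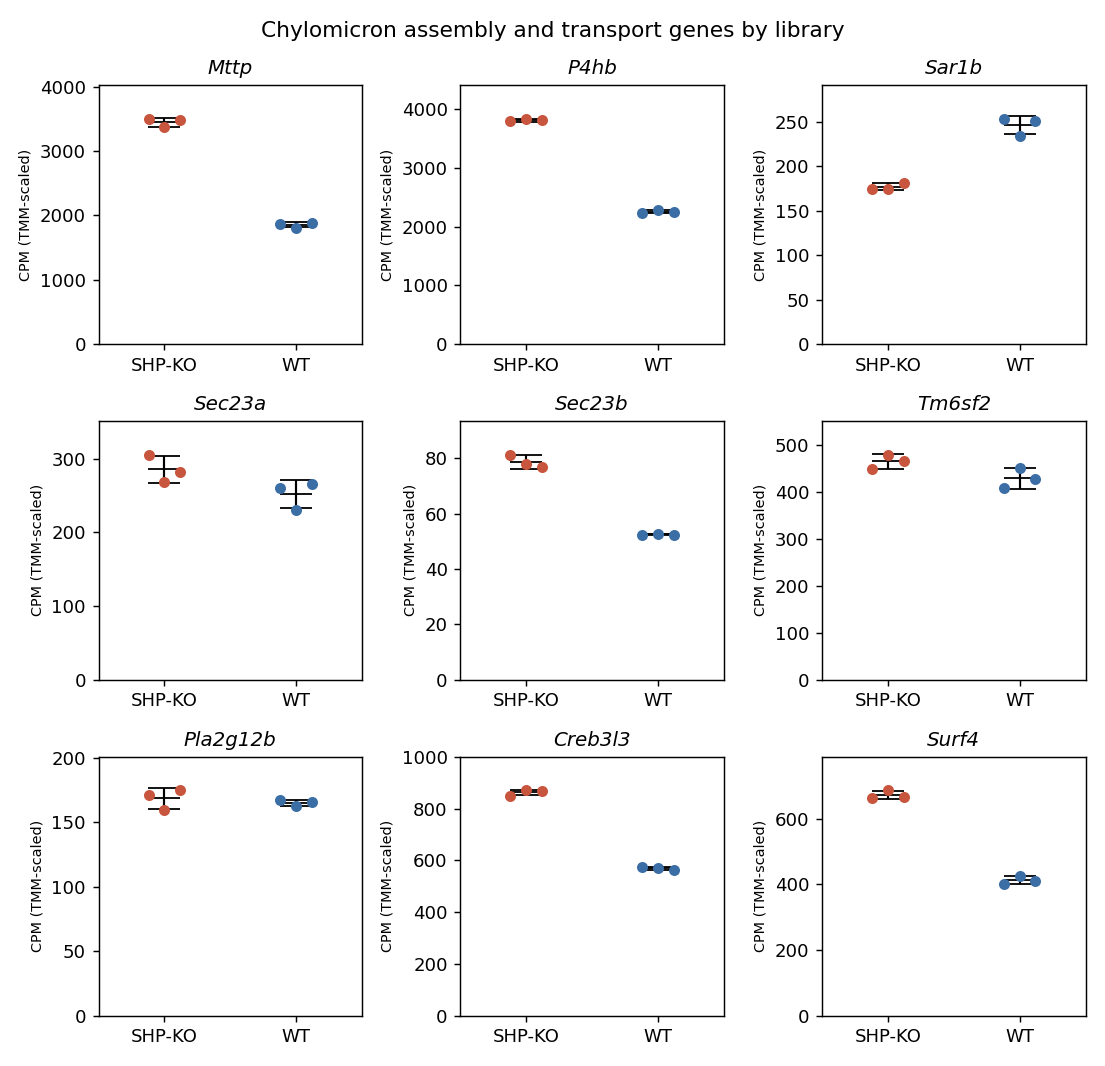
Counts per 1000000 (CPM, library sizes scaled by TMM) of each gene in the 3 SHP-KO and the 3 WT libraries (points), with mean and SD (black). Mttp, P4hb, Creb3l3, Surf4 and Sec23b lie well above WT in all SHP-KO libraries, Sar1b lies below, and Tm6sf2 and Pla2g12b overlap.

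Mttp encodes the large, lipid-carrying subunit of the transfer protein, and without it no chylomicron forms. It stood at 3502, 3368 and 3478 CPM in SHP-KO replicates 1 to 3, against 1873, 1809 and 1885 CPM in WT. Every SHP-KO library was well above every WT library. The difference was 1.86-fold (log2 0.89, SE 0.023, adjusted p 3.5e-53, edgeR), a size above that of 76.8% of tested genes. Mttp spans 137752819 to 137806352 on the minus strand of chromosome 3 (mm9), with 4410 bases of exon.

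P4hb, the small subunit that keeps MTTP soluble and that also forms disulfide bonds and serves collagen hydroxylation, rose with it. Its level was 3796, 3842 and 3815 CPM in SHP-KO and 2231, 2287 and 2247 CPM in WT. No library of a genotype reached the other, and the log2 fold change was 0.76 (SE 0.022, adjusted p 5.6e-49, edgeR). P4hb lies on chromosome 11 from 120421618 to 120434250 (mm9, minus strand).

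Within each library the level of Mttp can be set against its partner and its cargo, free of any scaling between libraries. Per kilobase of exon, Mttp stood at 0.531, 0.504 and 0.525 of P4hb in SHP-KO and at 0.483, 0.455 and 0.483 in WT, so the 2 subunits differed little in their change (log2 ratio higher by 0.13). Against Apob, which encodes the structural protein of the particle, the ratio was 2.96, 2.88 and 2.96 in SHP-KO and 1.58, 1.46 and 1.55 in WT. Apob itself averaged 3713 ± 23.0 CPM in SHP-KO and 3831 ± 84.4 CPM in WT (SD, n = 3 each), a difference short of the threshold (adjusted p 0.061, edgeR, log2 -0.05). Both ratios were higher in 3 of 3 SHP-KO libraries, by log2 0.13 and 0.94, with a two-sided exact permutation p of 0.10 each (0.10 after adjustment over 4 ratios), the smallest that 3 against 3 libraries allow.

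**Figure D2:**
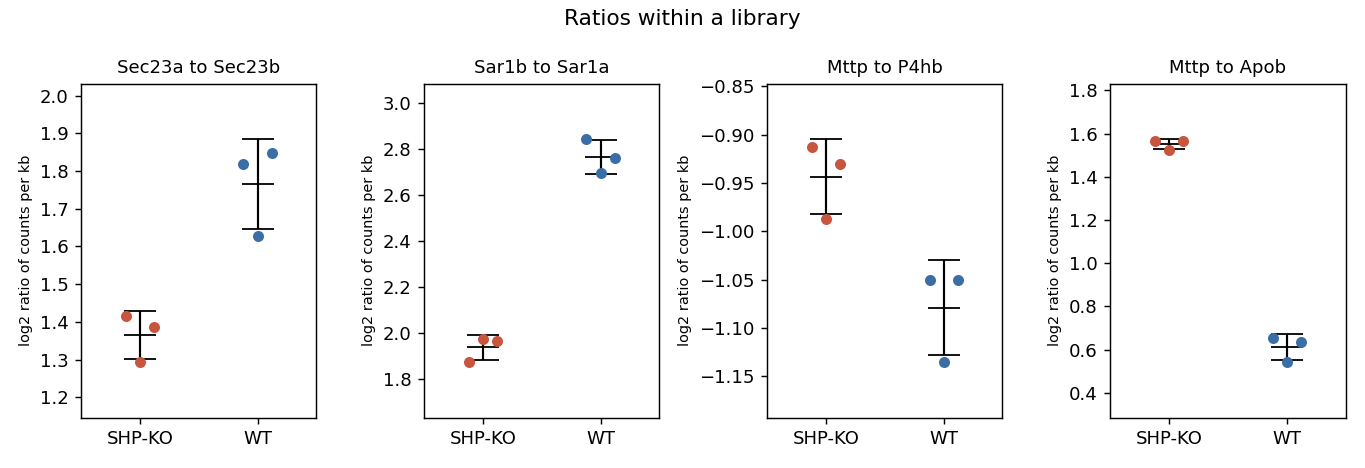
Log2 ratio of counts per kilobase of exon between 2 genes of the same library, for the 3 SHP-KO and the 3 WT libraries (points) with mean and SD (black). Each axis has its own range and does not start at 0, and the groups are apart in all 4 panels.

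Tm6sf2 and Pla2g12b act beside the transfer protein: in mouse liver both are needed to fill lipoproteins with triglyceride. Tm6sf2, a membrane protein of the ER and early Golgi, had 448.7, 479.8 and 466.7 CPM in SHP-KO and 408.0, 452.1 and 427.9 CPM in WT. The lowest SHP-KO library lay under the highest WT library, and the log2 fold change was 0.12 (SE 0.030, adjusted p 0.00045, edgeR). The call was lost with no filter on low counts (adjusted p 0.086), and with an exact test at an assumed CV of 0.2 (adjusted p 0.76). Without WT replicate 1, the lowest library, the log2 fold change was 0.075 (adjusted p 0.038, edgeR).

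Pla2g12b, an ER protein of the phospholipase family without enzyme activity, was nearly level. It had 171.0, 159.3 and 174.5 CPM in SHP-KO and 167.0, 162.4 and 165.6 CPM in WT, and the SHP-KO values enclosed all WT values. Its log2 fold change was 0.027 with a 95% interval of -0.047 to 0.10 (adjusted p 0.53, edgeR). In mm9 Tm6sf2 spans 72596831 to 72603951 on chromosome 8 (plus strand) and Pla2g12b spans 58866433 to 58884724 on chromosome 10 (plus strand).

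Creb3l3 encodes CREB-H, a transcription factor held in the ER membrane, which is cut free in the Golgi and then switches on apolipoprotein genes in mouse liver. It stood at 849.1, 870.1 and 867.0 CPM in SHP-KO against 572.5, 569.4 and 563.5 CPM in WT, with a wide gap between the groups. The increase was 1.52-fold (log2 0.60, SE 0.026, adjusted p 1.4e-36, edgeR). Creb3l3 lies on chromosome 10 from 80547078 to 80561617 (mm9, minus strand).

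The other family members rose as well. Creb3l2, Creb3l1, Creb3 and Creb3l4, related factors of the ER membrane, all rose, the first 3 by log2 1.84, 1.24 and 0.44, while Mbtps1 and Mbtps2, the proteases that cut such factors, fell (log2 -0.15 and -0.50, the libraries of Mbtps2 overlapping). Scaled to epithelial genes, 1 of the 2 proteases was still called lower, and at an assumed CV of 0.2 neither was, nor was Creb3 called higher (adjusted p 0.16). Creb3l4 was scarce and uneven, at 2.5 ± 1.3 CPM in SHP-KO and 1.0 ± 0.019 CPM in WT (SD, n = 3 each). Creb3l2 was much less abundant than Creb3l3, at 54.0 ± 1.7 CPM in SHP-KO and 15.0 ± 1.2 CPM in WT. Of 7 genes known as CREB-H targets in mouse liver only 3 passed the count filter (Apoa4, Apoc2 and Cidec), and these rose by log2 2.42, 3.28 and 0.25. Cidec was not called at an assumed CV of 0.2 (adjusted p 0.47), and each of the 3 also stands in the cargo or lipid supply list. Among the 4 untested targets, Hamp had 4 counts over the SHP-KO and 35 over the WT libraries, Apoa5 had 10 and 12, Fgf21 had 0 and 1, and Apcs had none.

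Surf4, the ER cargo receptor that carries apolipoprotein B particles to COPII exit sites in mouse liver, rose 1.63-fold. SHP-KO libraries had 664.7, 686.9 and 666.3 CPM and WT libraries 400.6, 426.2 and 411.6 CPM, which leaves the groups far apart. The log2 fold change was 0.71 (SE 0.028, adjusted p 2.3e-39, edgeR). Surf4 spans 26775561 to 26789031 on the minus strand of chromosome 2 (mm9), where 130 of its 2863 exon bases overlap Surf2 on the other strand. Because the counting ignored strand, reads there cannot be assigned, though Surf2 held only 117 counts over all SHP-KO and 165 over all WT libraries.

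Sar1b, the GTPase that starts the coat, was the only one of the 9 to fall. Its level was 175.0, 174.1 and 181.6 CPM in SHP-KO against 253.5, 234.6 and 250.6 CPM in WT, and every SHP-KO library lay below all WT libraries. This is 1.39-fold lower (log2 -0.48, SE 0.035, adjusted p 7.0e-22, edgeR), with an adjusted p of 0.11 at an assumed CV of 0.2. Its paralogue Sar1a, which shares the coat function, rose to 95.8 ± 3.6 CPM in SHP-KO, against 75.1 ± 1.7 CPM in WT (SD, n = 3 each, log2 0.35). That rise too was lost at an assumed CV of 0.2 (adjusted p 0.27).

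The ratio of the paralogues combines both differences. Per kilobase of exon Sar1b exceeded Sar1a 3.67, 3.94 and 3.90 times in SHP-KO and 7.17, 6.48 and 6.77 times in WT. The ratio was 1.77-fold lower in SHP-KO, in 3 of 3 libraries (log2 -0.83, exact permutation p 0.10, adjusted 0.10). Sar1b remained the more abundant of the pair in all 6 libraries. Sar1b spans 51577165 to 51605455 on chromosome 11 (mm9, plus strand). Reads that fit both paralogues equally well were not counted under the settings in the file headers.

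Sec23a and Sec23b encode the inner coat subunit that stimulates SAR1's GTPase activity. Sec23b, the gene behind a congenital anaemia in humans, had 81.3, 77.8 and 76.8 CPM in SHP-KO and 52.4, 52.8 and 52.4 CPM in WT. The WT libraries were nearly identical and all SHP-KO libraries were above them (log2 0.58, SE 0.054, adjusted p 1.2e-16, edgeR). Sec23a had 305.7, 268.7 and 282.7 CPM in SHP-KO and 260.8, 230.0 and 265.6 CPM in WT. Here the groups only just cleared each other, and the log2 fold change was 0.18 (SE 0.062, adjusted p 0.029, edgeR).

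The call of Sec23a was the weakest of the 9, and it was lost without SHP-KO replicate 3 (adjusted p 0.070), with no scaling factors (adjusted p 0.083) and at an assumed CV of 0.2 (adjusted p 0.61). Without WT replicate 2, its lowest library, the log2 fold change was 0.11 (adjusted p 0.0032, edgeR). Per kilobase of exon, Sec23a exceeded Sec23b 2.67, 2.45 and 2.61 times in SHP-KO and 3.53, 3.09 and 3.6 times in WT. So the share of Sec23b was higher in 3 of 3 SHP-KO libraries (log2 ratio -0.40, exact permutation p 0.10, adjusted 0.10), while Sec23a stayed the more abundant. In mm9 Sec23a spans 60059371 to 60113004 on chromosome 12 (minus strand) and Sec23b spans 144381965 to 144416489 on chromosome 2 (plus strand).

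**Figure D3:**
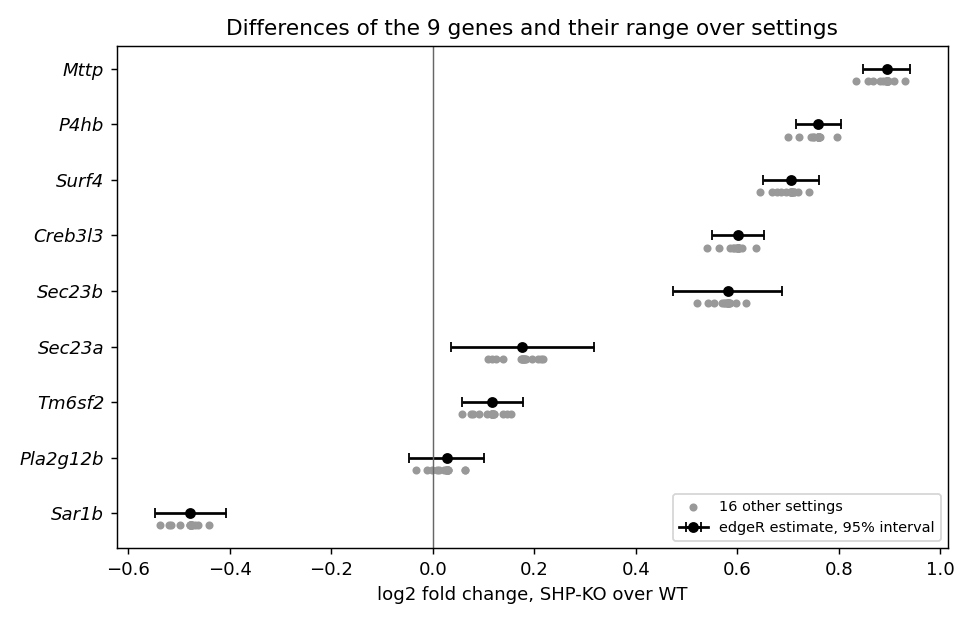
Log2 fold change of each gene, SHP-KO over WT, with its 95% interval (black) and its value in each of 16 other settings (grey: other scaling, filters, tests, the replicate block and each library left out). Mttp, P4hb, Surf4, Creb3l3 and Sec23b stay above 0.5 and Sar1b below -0.4 in all of these, and Pla2g12b falls on both sides of 0.

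Start site windows of 4 of the genes are shown, picked by their match to the core TGACGT. They are the windows of Mttp, Sec23a and Sec23b that hold it, and that of Sar1b, which fell and lacks it. Windows of P4hb, Surf4 and Creb3l3, which rose without the core, are not shown. The CREB3 family binds DNA around this core, and CREB3L2 is known to switch on Sec23a in mouse cartilage cells. Whether these factors act on the genes here was not tested. Sequences are from RefSeq (GRCm38.p6, not the build of the counts), run from 250 bases before to 50 after an annotated start, and carry the core, in either direction, in capitals. The windows are chr3:138143369-138143668 (minus strand) for Mttp, chr12:59011968-59012267 (minus strand) for Sec23a, chr2:144555979-144556278 (plus strand) for Sec23b, and chr11:51763413-51763712 (plus strand) for Sar1b.
Mttp: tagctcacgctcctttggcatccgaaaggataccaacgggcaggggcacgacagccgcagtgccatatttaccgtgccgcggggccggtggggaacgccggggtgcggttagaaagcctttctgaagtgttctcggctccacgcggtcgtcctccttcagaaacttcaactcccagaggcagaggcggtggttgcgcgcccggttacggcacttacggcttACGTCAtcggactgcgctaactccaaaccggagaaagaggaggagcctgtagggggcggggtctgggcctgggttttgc
Sec23a: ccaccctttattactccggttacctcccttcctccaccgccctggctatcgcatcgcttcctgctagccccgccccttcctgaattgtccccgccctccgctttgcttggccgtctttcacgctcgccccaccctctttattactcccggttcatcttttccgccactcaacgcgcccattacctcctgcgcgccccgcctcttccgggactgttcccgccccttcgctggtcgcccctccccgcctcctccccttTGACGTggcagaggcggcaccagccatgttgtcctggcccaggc
Sec23b: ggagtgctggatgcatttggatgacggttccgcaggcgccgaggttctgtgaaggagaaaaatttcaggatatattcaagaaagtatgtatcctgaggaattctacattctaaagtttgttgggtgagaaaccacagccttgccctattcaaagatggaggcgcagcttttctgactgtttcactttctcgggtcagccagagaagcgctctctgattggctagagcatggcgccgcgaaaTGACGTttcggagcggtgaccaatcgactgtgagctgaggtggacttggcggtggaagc
Sar1b: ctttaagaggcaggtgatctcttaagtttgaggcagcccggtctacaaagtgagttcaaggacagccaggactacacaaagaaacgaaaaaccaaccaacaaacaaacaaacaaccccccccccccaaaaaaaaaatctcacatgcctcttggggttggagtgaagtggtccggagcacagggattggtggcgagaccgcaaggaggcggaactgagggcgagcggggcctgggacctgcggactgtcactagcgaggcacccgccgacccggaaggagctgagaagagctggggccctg

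The 8 genes with a window had 10 windows between them, and no background per gene was taken. The core TGACGT, searched on both strands, lay in 1 window each of Mttp, Sec23a and Sec23b. That is 3 of the 10 windows, beside 7.51% of all 32851 windows. Sec23b has another window, without it. The core begins 29 bases before the start in Mttp, 9 bases before it in Sec23b, and at base 7 after it in Sec23a. P4hb, Surf4 and Creb3l3 rose without it in their windows, and Pla2g12b and Sar1b lack it too. The letters CAAGGNCA, bound by NR5A2 (LRH-1), a partner that SHP is known to repress, lay in 1 of the 10 windows, that of Sar1b, and in 6.71% of all windows. CAAAGTCCA, bound by HNF4 factors, and the ER stress element, matched with its full spacer, were in none of the 10 (0.475% and 0.119% of all windows). These motifs were chosen with the windows in view, a match is a run of letters and not a shown site, and start sites other than those annotated are not covered.

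Levels per length order the 9 genes by abundance. In RPKM, which is CPM per kilobase of exon, the SHP-KO group held P4hb at 1504 ± 9.18, Mttp at 782.2 ± 16.3, Creb3l3 at 377.6 ± 4.96 and Tm6sf2 at 328.0 ± 11 (SD, n = 3). In the WT group P4hb stood at 888.5 ± 11.3, Mttp at 420.7 ± 9.23, Tm6sf2 at 302.8 ± 15.6 and Creb3l3 at 249.0 ± 2.01 (SD, n = 3). Creb3l3 and Tm6sf2 thus swapped places. Surf4 moved above Pla2g12b and Sar1b in SHP-KO, with RPKM of 234.9 ± 4.32, 157.9 ± 7.51 and 141.2 ± 3.27, while the WT order was Sar1b, Pla2g12b and Surf4, at 196.5 ± 8.12, 154.8 ± 2.21 and 144.2 ± 4.49. The SEC23 genes were lowest in both groups. Within a genotype the 3 libraries of each gene stayed apart from those of its neighbours in the order.

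**Figure D4:**
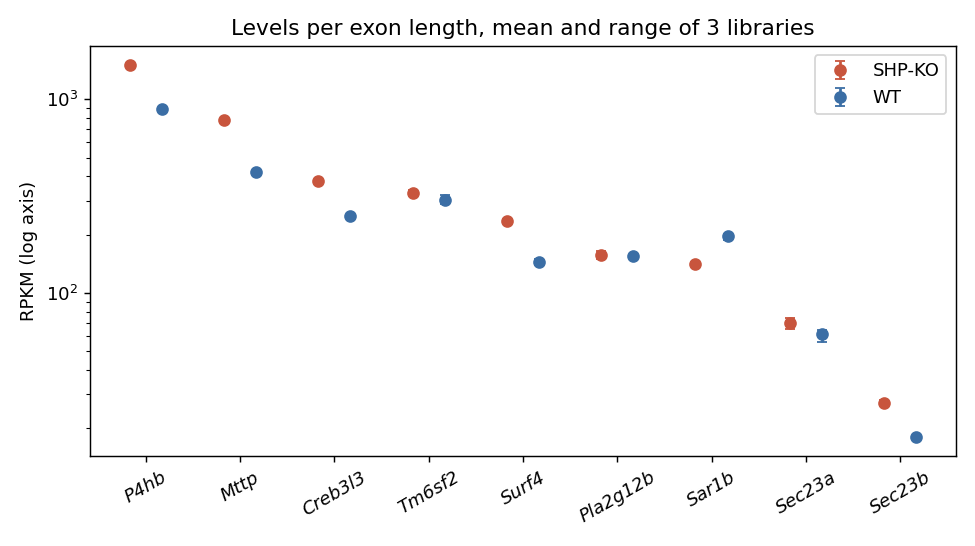
RPKM (log axis) of the 9 genes in order of their SHP-KO level, as mean and range of 3 SHP-KO and 3 WT libraries. P4hb and Mttp lead in both groups, and Surf4 and Sar1b change places between them.

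Other parts of the coat moved both ways, more often up. Of 17 tested COPII and exit site genes, 10 rose and 6 fell, and the median log2 fold change of the 17 was 0.35. Sec24d, a cargo adaptor, rose to 226.5 ± 2.5 CPM in SHP-KO, against 87.3 ± 0.76 CPM in WT (SD, n = 3 each, log2 1.38). Sec16b, a scaffold of exit sites, and Sec31a, of the outer coat, rose by log2 1.16 and 0.83.

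Of the falls, those of Mia2, Cul3 and Pdcd6 had the smallest p. Mia2, which helps large lipoprotein cargo into COPII carriers, fell to 8.9 ± 0.67 CPM in SHP-KO, against 22.9 ± 2.1 CPM in WT (log2 -1.37). Its counts are uncertain, because other transcripts of its locus are annotated as Ctage5. Ctage5, which had most of the counts, fell less, to 159.0 ± 4.8 CPM in SHP-KO, against 196.0 ± 2.4 CPM in WT (log2 -0.30). Cul3, the ubiquitin ligase scaffold that enlarges COPII coats through its adaptor KLHL12, and Pdcd6, a calcium sensor that binds the outer coat, fell by 0.46 and 0.28 on the log2 scale. With an assumed CV of 0.2, 6 of the list were called higher and 1 lower. At that setting 33.4% of all 12106 tested genes were called, 2164 higher and 1877 lower. This share is the background for the counts of the lists below at that setting. Mia3, another receptor for large cargo, is listed at 0 in all libraries and annotated on an unplaced contig.

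Downstream steps to the Golgi gave 10 higher, 3 lower and 4 not passing of 17 tested (median log2 0.13). Uso1, a tether of ER-derived vesicles, and Sec22b, a fusion protein of the SNARE class, rose by log2 0.76 and 0.74, and Mcfd2, a cofactor of the cargo receptor LMAN1, by 0.34. Tmem41b and Vmp1, ER scramblases that in mouse are needed to free lipoproteins from the membrane, had log2 fold changes of -0.50 and -0.16, and Tmed10, a cargo receptor, had -0.25. These 3 were the falls. At an assumed CV of 0.2 the counts were 3 higher and 0 lower. Vamp7, the SNARE found on chylomicron transport vesicles in rat, is likewise at 0 on such a contig.

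Other folding enzymes of the ER did not follow P4hb. Of 12 tested, 1 rose, 6 fell and 5 did not pass (median log2 -0.10). Pdia3, another disulfide isomerase of the ER, had 502.6 ± 7.1 CPM in SHP-KO and 649.9 ± 19.4 CPM in WT (SD, n = 3 each, log2 -0.37). Dnajc3, a co-chaperone, and Canx (calnexin) fell by 0.50 and 0.35 on the log2 scale, whereas Hspa5 (BiP), the main ER chaperone, rose by log2 0.20. None of the 12 passed at an assumed CV of 0.2.

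**Figure D5:**
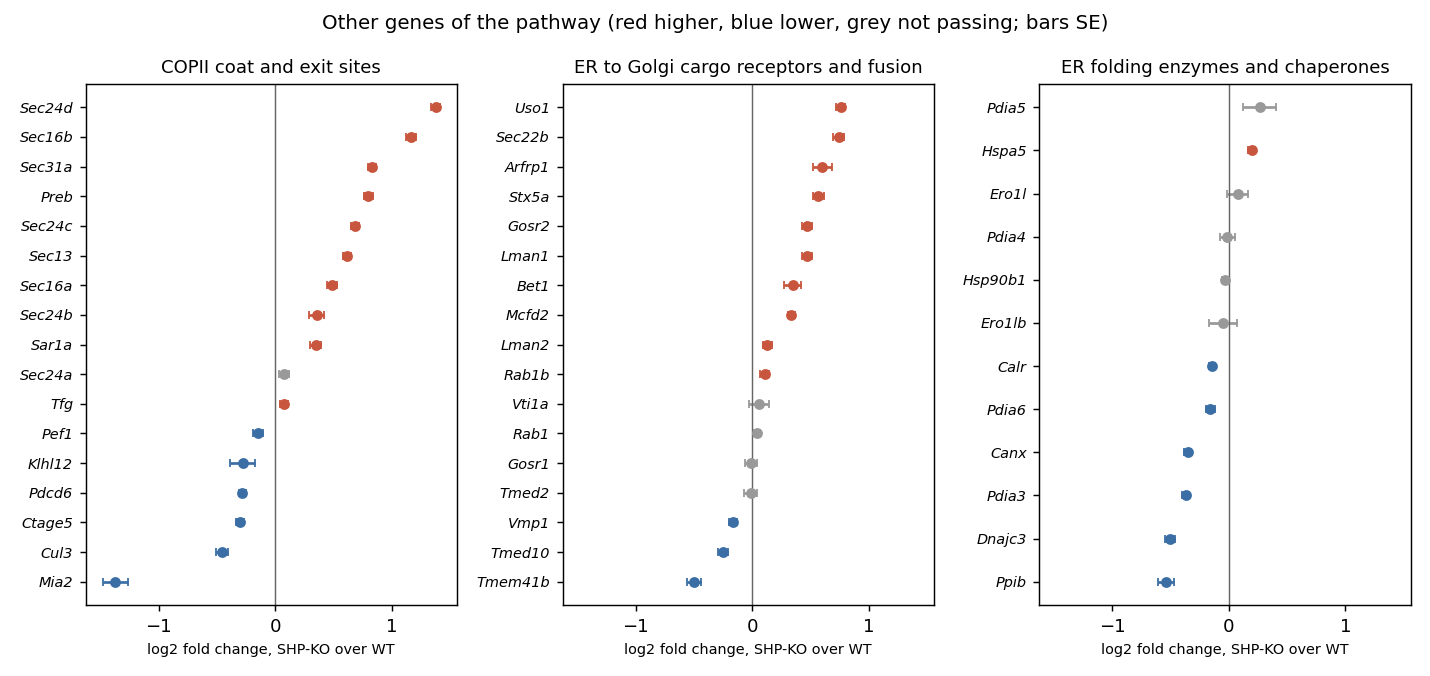
Log2 fold change, SHP-KO over WT, with SE, of the tested genes of 3 lists around the 9 genes (red higher, blue lower, grey not passing). Most coat and transport genes lie right of 0 and most folding enzymes left of it.

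Cargo and lipid supply differed gene by gene. Among 9 tested apolipoprotein and Apob editing genes 4 rose and 4 fell, and Apob did not pass. Apoc2, Apoc3 and Apoa4, surface proteins of chylomicrons, had log2 fold changes of 3.28, 3.05 and 2.42. Apobec1 and A1cf, which edit the Apob message to its short intestinal form, had log2 fold changes of -0.48 and -0.53, and Apoe, a ligand for particle uptake, fell as well (-0.37). Rbm47, another Apob editing gene of the list, rose instead (log2 0.23), to 334.2 ± 2.4 CPM in SHP-KO, against 284.9 ± 13.9 CPM in WT. At an assumed CV of 0.2 none of the 4 falls passed, nor did the rise of Rbm47 (adjusted p 0.50, exact test). Of 15 lipid supply genes 10 rose and 5 did not pass: Dgat1, which makes triglyceride, had a log2 fold change of 0.90, much like that of Mttp, and the fatty acid carriers Fabp1 and Cd36 had 4.11 and 3.77. At an assumed CV of 0.2 the count of rises was 4. Among the 10 rises, Fabp1 is also an upper small intestine marker and Fabp2 also an enterocyte marker.

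Known regulators were mostly lower. Of 16 tested, 4 rose, 9 fell and 3 did not pass (median log2 -0.33). Hnf4a, an activator of the Mttp promoter, stood at 494.6 ± 4.3 CPM in SHP-KO and 808.7 ± 13.4 CPM in WT (SD, n = 3 each, log2 -0.71). Atf6, a sensor of ER stress, and Ppara, a fatty acid receptor, fell too, with log2 fold changes of -0.90 and -0.83. Nr5a2, picked after its values were seen, had 5.2 ± 0.94 CPM in SHP-KO and 14.5 ± 2.8 CPM in WT (log2 -1.49). Ppargc1a, a coactivator, Ern2, an RNase of the ER known to degrade the Mttp message in mouse intestine, and Srebf2, which represses the MTTP promoter in human liver cells, rose by log2 0.75, 2.38 and 1.53. Ern2 was scarce, at 6.4 ± 0.65 CPM in SHP-KO and 1.2 ± 0.12 CPM in WT. At an assumed CV of 0.2, 5 of the 9 falls were called.

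Genes whose log2 CPM, centred over the 6 libraries, ran closest to that of Mttp were Mocs2 (distance 0.039), Rbbp6 (0.048) and H2-Q1 (0.055). With only 2 groups this likeness mostly reflects a similar fold change (log2 0.87, 0.93 and 0.90), and 29 genes lay within double the distance of the third. H2-Q1 has close copies, so its counts are uncertain.

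Markers of other cell types also changed. Smooth muscle markers rose in 10 of 10 cases and goblet cell markers in 7 of 7, with summed levels of 1035 to 1072 and 7476 to 7605 CPM in SHP-KO against 227 to 235 and 2609 to 2688 CPM in WT. All 6 B cell markers fell (1.02 to 1.38 CPM in SHP-KO, 70.4 to 73.2 in WT), Cr2 and Faim3 being at 0 counts in SHP-KO, and all 3 tested adipocyte markers rose (22.8 to 26.9 CPM in SHP-KO, 2.10 to 3.21 in WT). Paneth cell markers fell in 4 of 5 cases (223 to 250 CPM in SHP-KO, 550 to 606 in WT). Reg3g was the largest part of the WT Paneth sum, with a mean of 401.8 CPM there against 92.4 in SHP-KO. Of 5 tested plasma cell markers 1 rose and 2 fell (208 to 231 CPM in SHP-KO, 314 to 323 in WT). That lower sum rests mainly on Sdc1 (mean 109.2 CPM in SHP-KO, 269.4 in WT). Igj went the other way (mean 100.1 CPM in SHP-KO, 34.5 in WT), so the plasma cell list has no common direction. The part of these shifts in the 9 genes was not tested.

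Epithelial marker sums were close between genotypes, although most single markers changed in one direction or the other. The 10 general markers summed to 23391 to 23426 CPM in SHP-KO and 23945 to 24123 CPM in WT, with 4 higher, 5 lower and 1 not passing, and 10 enterocyte markers to 68568 to 70013 CPM in SHP-KO and 66879 to 69409 CPM in WT (4 higher, 6 lower). Among these, the brush border enzyme Sis fell to 1592 ± 33.0 CPM in SHP-KO, against 3753 ± 3.03 CPM in WT (SD, n = 3 each), and Cdx2, a transcription factor of gut epithelium, had a log2 fold change of -0.92. Both were picked after their values were seen. Fabp2, also in the lipid supply list, was the largest part of the enterocyte sum. It rose to 38735 ± 876 CPM in SHP-KO, against 33076 ± 1143 CPM in WT, so the closeness of the enterocyte sums depends on this gene. Scaled to the epithelial sum, the 9 genes gave the same count of 7 higher and 1 lower, with Mttp at log2 0.93 and Sar1b at -0.44. Liver and pancreas, which also use many of these genes, were nearly absent: 8 hepatocyte markers summed to 2.19 to 3.95 CPM in SHP-KO and 4.08 to 4.67 CPM in WT, with Fgb and Cyp7a1 at 0 counts, and 7 pancreatic acinar markers to at most 0.13 CPM in SHP-KO and 0.51 CPM in WT.

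Of the 9 genes, 4 had an adjusted p under 0.05 in the authors' deposited table: Mttp (0.0013), P4hb (0.0074), Surf4 (0.014) and Creb3l3 (0.042). These 4 were higher in SHP-KO there, by log2 0.88, 0.74, 0.69 and 0.58. The share of all genes under 0.05 in that table was not taken, so this count has no background. Sec23b and Sar1b had 0.055 and 0.093 in the authors' deposited table, and the other 3 genes 0.64 or more.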

How the data were processed

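The deposited files hold raw read counts for each gene in each library, made with featureCounts 1.5.2, unstranded, summed over exons, per the file headers. The submitters' processing notes name Trimmomatic 0.38, STAR 2.6.0c and mm9, and per the labels reads were 100 bp. A table deposited by the authors holds log2 fold changes, mean expression (log2 CPM), p-values and their adjusted form, with edgeR named in the same notes. Here 12106 of 23284 genes passed filterByExpr (minimum count 10) in edgeR 4.0.16 (R 4.3.3). Counts were scaled by TMM and tested for SHP-KO against WT by the robust quasi-likelihood test, with an adjusted p threshold of 0.05 over all tested genes. SE and 95% intervals come from that fit, and RPKM divides TMM-scaled CPM by exon length.

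The 9 genes, the lists, the ratios and the markers were chosen with earlier results of these data known. Besides the 9 genes, Sar1a and Apob, up to 3 higher and 3 lower genes per list with the smallest p are named. Others are named only as exceptions or for their weight in a sum. Muc2 of the marker lists was not analysed here. Libraries of a genotype differed by more than counting noise, with chi-square values per gene of 1.33 to 1.97, so none was merged. The test was checked on simulated counts drawn with the spread of these same libraries, which cannot check it for a wider spread. Alternatives were other scalings, filters and tests (DESeq2 1.42.0, limma 3.58.1), the replicate block and leaving out each library. Fixing the assumed CV at 0.2 leaves the observed spread out. Intervals cover these libraries only. Figures used matplotlib 3.10.9.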

Additional observations from a re-analysis of the deposited data

How the results depend on the processing

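Mttp, P4hb, Surf4, Creb3l3 and Sec23b kept direction and call in all 16 alternatives, Mttp between log2 0.83 and 0.93. For Sec23b and Creb3l3 this was narrow in the exact test at an assumed CV of 0.2 (adjusted p 0.048 and 0.036). Assuming a CV of 0.2 moved most: 4041 genes passed instead of 8543 and 0 of the 9 were lower, with Sar1b at -0.48, Sec23a at 0.18 and Tm6sf2 at 0.12 no longer called, since that spread exceeds the observed 0.030. Sec23a was also not called with no scaling factors (0.14), nor Tm6sf2 with no filter (0.057), and the causes were not tested. Pla2g12b, not called anywhere, turned to -0.011 with no scaling factors and -0.033 with no filter. Leaving out single libraries gave 0.11 to 0.22 for Sec23a, 0.075 to 0.15 for Tm6sf2 and -0.0018 to 0.063 for Pla2g12b.

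With the replicate number as a block 8573 genes passed and the 9 genes gave the same 7 higher and 1 lower. Same-numbered libraries did not deviate together (correlations -0.0054 to 0.028), so the numbers were not taken as pairs. Because the count file headers carry library numbers other than the deposited ones, which library bears which replicate number rests on the deposited labels alone. All 4 ratios kept their direction in every alternative run. Under the other scalings the median log2 fold change of all tested genes ran between -0.050 and 0.024.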
